A study of Mus musculus with 4 samples.

Results

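Closely spaced CTCF regions were the 5766 control regions on chromosomes 1 to 19 whose summit lay within 5 kb of another control summit, out of 19701 control regions on these chromosomes and 20043 in the whole control list. The summit is the position of highest signal that the peak caller gave to a region, and a line is 1 region of a deposited list. Chaining neighbours at 5 kb gave 2522 groups. The regions were chosen by the summit positions of the control list, so their number, spacing and control values are given as a description with no test. The material was heart muscle cells (cardiac myocytes) of C57BL/6 left ventricles, in which CTCF binding was mapped by ChIP-seq, the sequencing of DNA pulled down with an antibody. Hearts labelled CTCF knockout gave 1 library and control hearts gave 1, each from the pooled myocytes of 3 hearts and with the same antibody. The sources used here do not give the Ctcf allele, the promoter that drove its removal, any inducing agent or the age of the mice.

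CTCF is a zinc-finger protein that binds a long DNA motif and stops the cohesin ring as it extrudes a loop of chromatin. Its sites mark loop anchors, domain borders and insulators between genes. Sites often stand in runs at strong borders and in tandem gene families, such as the protocadherin genes. In heart muscle the same protein has been studied for its part in holding chromatin loops of cells that no longer divide.

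With 1 library per genotype there was no replicate, and every value compares 2 libraries. A region is called kept if it overlapped a region of the library labelled CTCF knockout by at least 1 bp, and lost if it did not. Lost means no more than the absence of a called region. Fold enrichment is the authors' value for a region over the local background of its own library. No direction is read where values of both lists stand side by side. The lists give no read depth. The reads piled up at a summit (pileup) and the local background were solved from the deposited fold enrichment and p. The lowest background was 0.851 reads in the library labelled knockout and 1.01 reads in the control, a ratio of 0.846. The part of this difference in the results was not tested. The 95% intervals of shares are exact binomial (Clopper-Pearson), and that of a difference of shares is a normal approximation. All cover counting error only, and neighbouring regions are not independent of each other. A list of binding regions cannot check the labelled cell type or the deletion of Ctcf.

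Among closely spaced regions whose summit lay in a promoter window, the 3 strongest kept and the 3 strongest lost are shown first, since their windows give the DNA under a strong signal of each kind. Outside promoter windows some kept and some lost regions were stronger than several of these. Windows run 5′ to 3′ on the gene's strand, from 250 bases before to 50 after a RefSeq gene start (GRCm38.p6, the assembly called mm10). Capitals mark a match to either of the short forms of the CTCF core motif that were searched. The first is CCA, any 2 bases, AG, any 2 bases and GGC, and the second is CC, any 3 bases, AGG, any base and GGC, on both strands. Some sites fit both forms. The first 3 windows belong to kept regions and the next 3 to lost regions, and the last one is shared by copies in a gene array. They lie at chr3:144720286-144720585 (minus strand) for Sh3glb1, chr6:47835411-47835710 (plus strand) for Zfp398, chr9:78112988-78113287 (plus strand) for Cilk1, chr10:79959902-79960201 (plus strand) for Wdr18, chr5:143548470-143548769 (plus strand) for Fam220a, chr2:152831679-152831978 (minus strand) for Bcl2l1 and chr4:88800070-88800369 (plus strand) for Gm13285.
Sh3glb1: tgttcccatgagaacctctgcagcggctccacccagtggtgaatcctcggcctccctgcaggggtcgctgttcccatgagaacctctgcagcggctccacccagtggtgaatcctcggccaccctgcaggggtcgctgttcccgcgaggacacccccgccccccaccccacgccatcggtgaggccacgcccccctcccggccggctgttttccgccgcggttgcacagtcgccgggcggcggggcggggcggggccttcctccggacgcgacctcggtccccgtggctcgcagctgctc
Zfp398: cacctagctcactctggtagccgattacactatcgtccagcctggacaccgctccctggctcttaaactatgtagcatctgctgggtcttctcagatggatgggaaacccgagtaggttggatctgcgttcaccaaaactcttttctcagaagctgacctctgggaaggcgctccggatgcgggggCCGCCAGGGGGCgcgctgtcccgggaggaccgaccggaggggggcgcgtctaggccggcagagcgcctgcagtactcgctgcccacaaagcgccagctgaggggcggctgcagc
Cilk1: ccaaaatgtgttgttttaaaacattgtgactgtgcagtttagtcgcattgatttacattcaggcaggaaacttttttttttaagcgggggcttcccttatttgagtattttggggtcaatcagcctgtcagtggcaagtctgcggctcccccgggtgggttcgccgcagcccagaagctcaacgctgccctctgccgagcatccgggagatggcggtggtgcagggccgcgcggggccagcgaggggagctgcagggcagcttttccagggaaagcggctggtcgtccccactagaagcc
Wdr18: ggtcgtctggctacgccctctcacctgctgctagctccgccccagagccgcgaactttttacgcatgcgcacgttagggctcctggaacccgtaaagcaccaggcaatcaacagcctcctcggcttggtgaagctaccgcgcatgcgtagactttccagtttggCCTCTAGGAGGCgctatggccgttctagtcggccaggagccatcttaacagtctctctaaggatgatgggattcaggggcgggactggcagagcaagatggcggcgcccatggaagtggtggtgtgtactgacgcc
Fam220a: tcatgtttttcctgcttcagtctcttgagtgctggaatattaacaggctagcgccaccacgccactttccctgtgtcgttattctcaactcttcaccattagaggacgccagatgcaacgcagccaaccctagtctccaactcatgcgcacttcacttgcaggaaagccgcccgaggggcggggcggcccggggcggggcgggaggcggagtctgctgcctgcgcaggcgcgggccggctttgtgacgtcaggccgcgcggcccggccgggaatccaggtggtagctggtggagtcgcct
Bcl2l1: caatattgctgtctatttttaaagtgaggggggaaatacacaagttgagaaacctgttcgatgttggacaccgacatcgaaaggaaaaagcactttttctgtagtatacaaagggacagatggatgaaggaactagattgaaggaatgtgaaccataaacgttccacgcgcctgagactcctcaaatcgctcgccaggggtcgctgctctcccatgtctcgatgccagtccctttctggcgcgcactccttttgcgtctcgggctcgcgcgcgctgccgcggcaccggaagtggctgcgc
Gm13285: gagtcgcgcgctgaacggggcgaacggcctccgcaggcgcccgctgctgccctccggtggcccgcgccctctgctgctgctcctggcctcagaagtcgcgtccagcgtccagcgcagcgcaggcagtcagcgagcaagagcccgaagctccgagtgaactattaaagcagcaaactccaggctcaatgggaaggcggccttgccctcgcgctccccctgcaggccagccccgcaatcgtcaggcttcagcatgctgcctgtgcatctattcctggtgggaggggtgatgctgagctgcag

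The summit at Zfp398, a zinc-finger gene, stood 59 bp before the gene start, and the centre of its motif match lay 1 bp from it. Fold enrichment there was 18.9 in the list labelled knockout and 26.3 in the control list. At Wdr18, a gene of ribosomal RNA processing, the region was lost from a control fold enrichment of 11.7. Its motif match lay 11 bp from the summit, so a match close to a summit was present at a kept and at a lost region. The Sh3glb1 window, at the gene of endophilin B1, holds no match. It contains a run of 52 bases that appears again from position 69 of the window, without a mismatch. That region was kept, with 22.9 in the list labelled knockout and 29.4 in the control list. Cilk1, which encodes a kinase of the cilium, had 33.0 in the list labelled knockout and 22.0 in the control list. The lost regions at Fam220a and at Bcl2l1, the gene of the survival protein Bcl-xL, had 10.5 and 9.47 in the control list, and no match. No match says only that these letters are not in the window.

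Across all promoter windows the first form was found more often under kept than under lost regions. It was present in 43 of 234 windows with the summit of a kept closely spaced region (18.4%) and in 6 of 117 windows with the summit of a lost one (5.13%). Among control regions with no close neighbour the shares were 20.7% of 641 windows under kept regions and 5.11% of 235 under lost ones. Of all 31365 windows 2.47% held it. The second form gave 33.8% under kept and 15.4% under lost closely spaced regions, and 3.48% of all windows. Its matches lay a median of 22.0 bp from the summit of kept regions and 33.0 bp from that of lost regions. Kept regions are also the stronger ones, which is not separated here. The window table holds no window of chromosome 18.

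Most groups were pairs. There were 2007 pairs, 392 groups of 3 lines, 86 of 4 and 37 of 5 to 13 lines, and the median distance between the outer summits of a group was 2.06 kb. Between neighbouring summits the median distance was 1604 bp, with quartiles of 604 and 3193 bp. Of the 3244 neighbour distances, 662 (20.4%) were at most 0.5 kb, and the shortest was 119 bp. In 684 of them (21.1%) the edges of the lines were within 200 bp of each other. The smallest distance between edges was 52 bp. The share of control regions with a close neighbour lay between 22.7% on chromosome 16 and 33.8% on chromosome 11, and was 29.3% over the 19 chromosomes. Neighbours just inside the limit were 4997, 4989 and 4985 bp apart, near Rxra, Syt8 and Col23a1. Those just outside were 5001 bp apart near Fhad1 and 5002 bp apart near Fbxo42 and near Cd164l2.

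The library labelled knockout had a like distribution of spacing in its own list. By the same rule 4058 of its 15814 autosomal regions (25.7%) were closely spaced, in 1790 groups, against 5766 of 19701 (29.3%) in 2522 groups in the control. The median distance between neighbouring summits was 1624 bp in the list labelled knockout and 1604 bp in the control list. Distances of at most 0.5 kb made up 20.9% of the neighbour distances in the list labelled knockout and 20.4% in the control list. Of the groups of the library labelled knockout 1329 (74.2%) shared a line with a control group, and 1327 control groups (52.6%) shared one with a group of the other list.

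**Figure D1:**
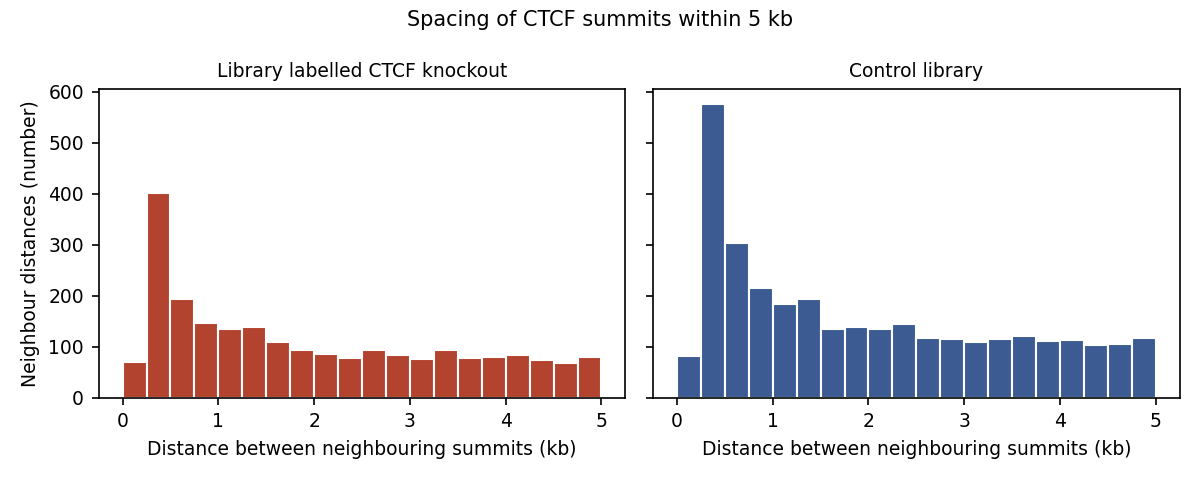
Number of neighbour distances per 0.25 kb in the library labelled CTCF knockout (left) and in the control library (right), for summits within 5 kb on chromosomes 1 to 19. Both lists have a short-range peak below 0.5 kb, which holds 20.9% of the distances in the library labelled knockout and 20.4% in the control.

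Where both lines of a control pair were kept, the spacing in the other list is given as a description, since lines that overlap by position must have a like spacing within about their width. In 884 such pairs the lines overlapped separate regions of the library labelled knockout, and in 72 pairs both overlapped the same one. The 884 pairs had a median spacing of 2420 bp in the library labelled knockout and 2415 bp in the control. The median absolute difference was 42.0 bp, 754 pairs (85.3%) differed by at most 100 bp, and the largest difference was 665 bp. The line with the higher fold enrichment was the same one in both lists in 563 of 874 pairs (64.4%).

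Closely spaced regions were kept about as often as the other control regions. Kept were 3969 of 5766 (68.8%, interval 67.6 to 70.0), against 9641 of 13935 other regions (69.2%, 68.4 to 70.0), and 69.1% of all 19701. The difference was -0.351 percentage points, with an interval of -1.77 to 1.07, and 0.582 points with the other regions weighted to the same 10 bins of control fold enrichment. Its sign turned with the settings, with 4.16 points at a −log10 q of at least 5 in both lists and -5.21 points for neighbours within 2 kb. The median control fold enrichment was 6.98 and the median pileup 15 reads in both sets. This near equality joins unlike parts. Of regions whose nearest summit was at most 0.5 kb away, 716 of 1285 were kept (55.7%, 53.0 to 58.5), and 641 of 961 at 0.5 to 1 kb (66.7%). At 1 to 2, 2 to 3, 3 to 4 and 4 to 5 kb the shares were 73.1%, 73.6%, 76.0% and 74.8%. Beyond the limit they were 74.9% at 5 to 10 kb and 64.0% over 50 kb. The control fold enrichment followed a like course, with a median of 5.48 at most 0.5 kb away, 7.48 at 3 to 4 kb and 6.71 over 50 kb. Regions with no close neighbour at the same fold bins as those at most 0.5 kb apart were kept in 58.7%.

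**Figure D2:**
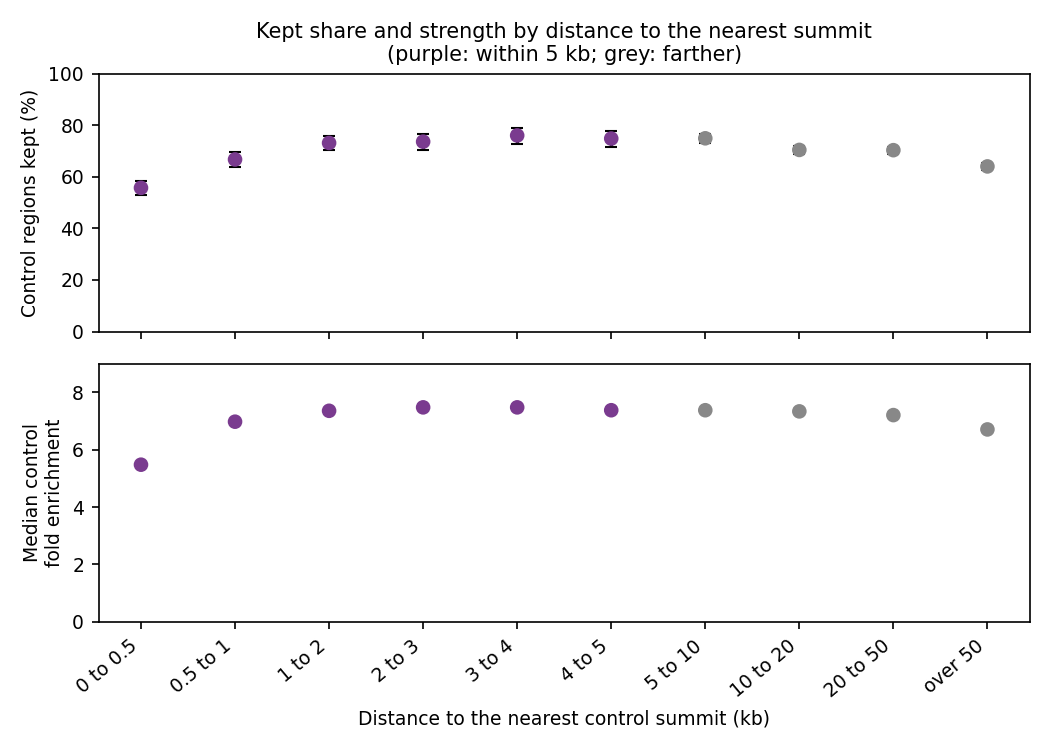
Kept share of control regions in percent with exact 95% intervals (top) and median control fold enrichment (bottom), by distance to the nearest control summit in kb. Regions at most 0.5 kb from a neighbour had both the lowest kept share, 55.7%, and the lowest median fold enrichment, 5.48.

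Within a pair the weaker line was the one most often lost. Of the 2007 pairs both lines were kept in 956 (47.6%), 1 line in 836 (41.7%) and no line in 215 (10.7%). The stronger line had a median control fold enrichment of 9.01 and the weaker 5.5. Of the stronger lines 83.8% were kept and of the weaker ones 53.6%. In 830 pairs with 1 kept line and unequal fold enrichment the kept line was the stronger one in 716 (86.3%, 83.7 to 88.5). This share was 67.0% in the 179 pairs whose lines differed by a ratio of at most 1.25, and 98.8% in the 251 pairs with a ratio over 2. A line was kept in 69.6% of cases when its partner was kept and in 66.0% when its partner was lost. At the fold bins of all paired lines these shares were 69.8% and 65.6%. Pooled over all distances, the shares thus differed less by the fate of the partner than by the line's rank within its pair. The pooled shares join unlike distances. Of 393 pairs at most 0.5 kb apart, both lines were kept in 92, 1 line in 233 and none in 68. A line there was kept less often beside a kept partner than beside a lost one. Of 275 pairs at 4 to 5 kb the counts were 161, 94 and 20, and the order was reversed.

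The gap between stronger and weaker lines was widest in the closest pairs. At summit distances of at most 0.5 kb 309 of 389 stronger lines were kept (79.4%, 75.1 to 83.3) and 106 weaker ones (27.2%, 22.9 to 32.0). At 4 to 5 kb 239 of 271 stronger lines were kept (88.2%, 83.7 to 91.8) and 174 weaker ones (64.2%, 58.2 to 69.9). The median control fold enrichment of weaker lines was 4.49 at most 0.5 kb apart and 6.04 at 4 to 5 kb. The weaker lines thus had lower values in the closest pairs, and the stronger ones too, at 7.98 and 9.47.

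**Figure D3:**
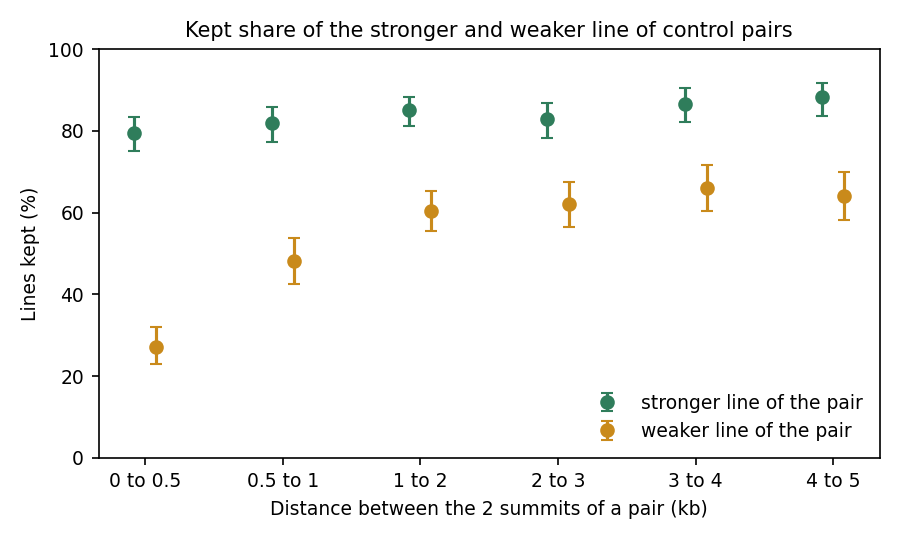
Share of the stronger and of the weaker line of a control pair that was kept, in percent with exact 95% intervals, by distance between the summits in kb; pairs with equal fold enrichment are left out. The weaker lines sit at 27.2% in the closest pairs and at 64.2% at 4 to 5 kb, while the stronger lines sit between 79.4% and 88.2%.

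Larger groups more often held both kept and lost lines. All lines were kept in 1130 of 2522 groups (44.8%), some in 1162 (46.1%) and none in 230 (9.12%). Mixed groups made up 41.7% of pairs, 59.7% of groups of 3, 70.9% of groups of 4 and 83.8% of larger ones. A larger group has more chances to be mixed, and the share of lines kept was 68.5%, 69.0%, 72.1% and 69.4% in these sizes. Between the outer summits of control groups, 6.41 Mb in all, the library labelled knockout had 93 of its 2198 autosomal regions that overlapped no control region. How many of all its regions lay in these spans was not counted, so 93 cannot be called many or few. By spacing in its own list, 637 of 4058 closely spaced regions (15.7%) overlapped no control region, against 1561 of 11756 others (13.3%).

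One of the largest groups followed a row of genes on chromosome 4. It held 13 lines within chr4:88773656-88806358, along Ifnz, an interferon zeta gene, and 11 protein-coding genes with predicted names, of which Gm13285 has the synonym limitin in the RefSeq table. Every line lay within 1 kb of a gene end. The 12 strong lines, those with at least 0.5 of the group's highest control fold enrichment, stood 2839 to 2980 bp apart, and the gene starts were a median of 2923 bp apart. The 12 kept lines had fold enrichments from 12.7 to 19 in the list labelled knockout and from 11.3 to 20.1 in the control list. The lost line was the weakest, with a control fold enrichment of 4.87, and it stood 736 bp from its stronger neighbour. Strong summits lay 503 to 645 bp after the gene start at Ifnz, Gm13276, Gm13277, Gm13278, Gm13275 and Gm13288. They lay 60 to 71 bp after it at Gm13290, Gm13289 and Gm13279. At Gm13272, Gm13285 and Gm13287 the summits lay 55, 55 and 44 bp before the gene start. The promoter windows of these 3 genes were equal at all 300 positions, and the window of Gm13285 printed above stands for all 3. The window at Gm13278, which holds the summit of the lost line, equalled that of Gm13272 at 22.7% of positions, compared position by position without alignment. The strong line at Gm13278 lay 581 bp after the gene start, so these windows may cover different parts of a copy. The share therefore does not show whether the copies differ in sequence. Reads from equal copies cannot be assigned to 1 copy by sequence, and how the authors treated such reads is not given in the sources used here. The values of single copies are therefore uncertain.

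A pair of groups with a like repeat stood on chromosome 6. One held 12 lines within chr6:47650890-47685809, along predicted genes and Rn4.5s, which the gene table annotates as an rRNA gene. The other held 7 lines within chr6:47739910-47758178, over 2 long non-coding genes with predicted names. In the first, 10 lines were kept and 2 were lost, with fold enrichments of 3.13 and 2.51 in the control list. The 9 strong lines of the first group, by the same limit of 0.5, stood 4148 to 4438 bp apart, and the 5 of the second 4245 to 4838 bp apart. All 7 lines of the second group were kept, on 6 regions of the library labelled knockout, since a strong line and the weak one beside it overlapped the same region. The strong lines of the first group had 9.4 to 12.2 in the list labelled knockout and 10.7 to 14.2 in the control list, apart from the outermost one, with 5.63 in the list labelled knockout and 8.92 in the control list. The local background was 3.37 to 7.64 reads in the first group and 8.96 to 11.9 in the second, above the lowest of 1.01. As in the gene row on chromosome 4, weak lines stood beside some of the strong ones. The limit for strong lines was chosen after their values were seen.

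A group of 8 lines lay beyond the constant genes of the immunoglobulin heavy chain locus. It spanned chr12:113215929-113224548. Its nearer edge lay 31.7 kb from Igha, the constant region gene at that end, and its strongest summit lay 28.6 kb from Tmem121. The stretch beyond Igha is known for a run of CTCF-binding elements that close the locus in B cells. Here, in cardiac myocytes, 6 of the 8 lines were kept. The strongest line (chr12:113217710-113218215) had 12.7 in the list labelled knockout and 15.1 in the control list. The next (chr12:113222106-113222611) had 13 in the list labelled knockout and 13.5 in the control list. The lost lines were the weakest 2, at 5.36 and 5.48 in the control list, each with a pileup of 10 reads. The local background lay between 1.01 and 1.32 reads, near the lowest of the library.

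Other large groups stood on a high local background. At chr9:2999964-3020350, with no protein-coding gene within 100 kb, all 13 lines were kept. Their fold enrichment was 2.47 to 3.71 in the list labelled knockout and 2.53 to 3.7 in the control list, on a control background of 64.3 to 71.7 reads. In Tmem267, which encodes a predicted membrane protein (chr13:119596820-119603059), all 7 lines were kept, with a background of 35.3 to 59.3 reads, and 3 of them overlapped the same region of the other list. Near and within Sfi1, a gene of a centrosome protein, 4 of 11 lines (chr11:3123238-3137338) and 1 of 10 lines (chr11:3155252-3173809) were kept. Their median background was 15.2 and 24.1 reads. High background thus went with all lines kept at 2 of these loci and with most lost at Sfi1. How reads that fit several places were counted was not given here either, so the values at these loci are uncertain. Over all closely spaced regions 120 (2.08%) had a background of at least 5 reads and 75% of these were kept. Of the other control regions 114 (0.818%) had one and 72.8% were kept.

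**Figure D4:**
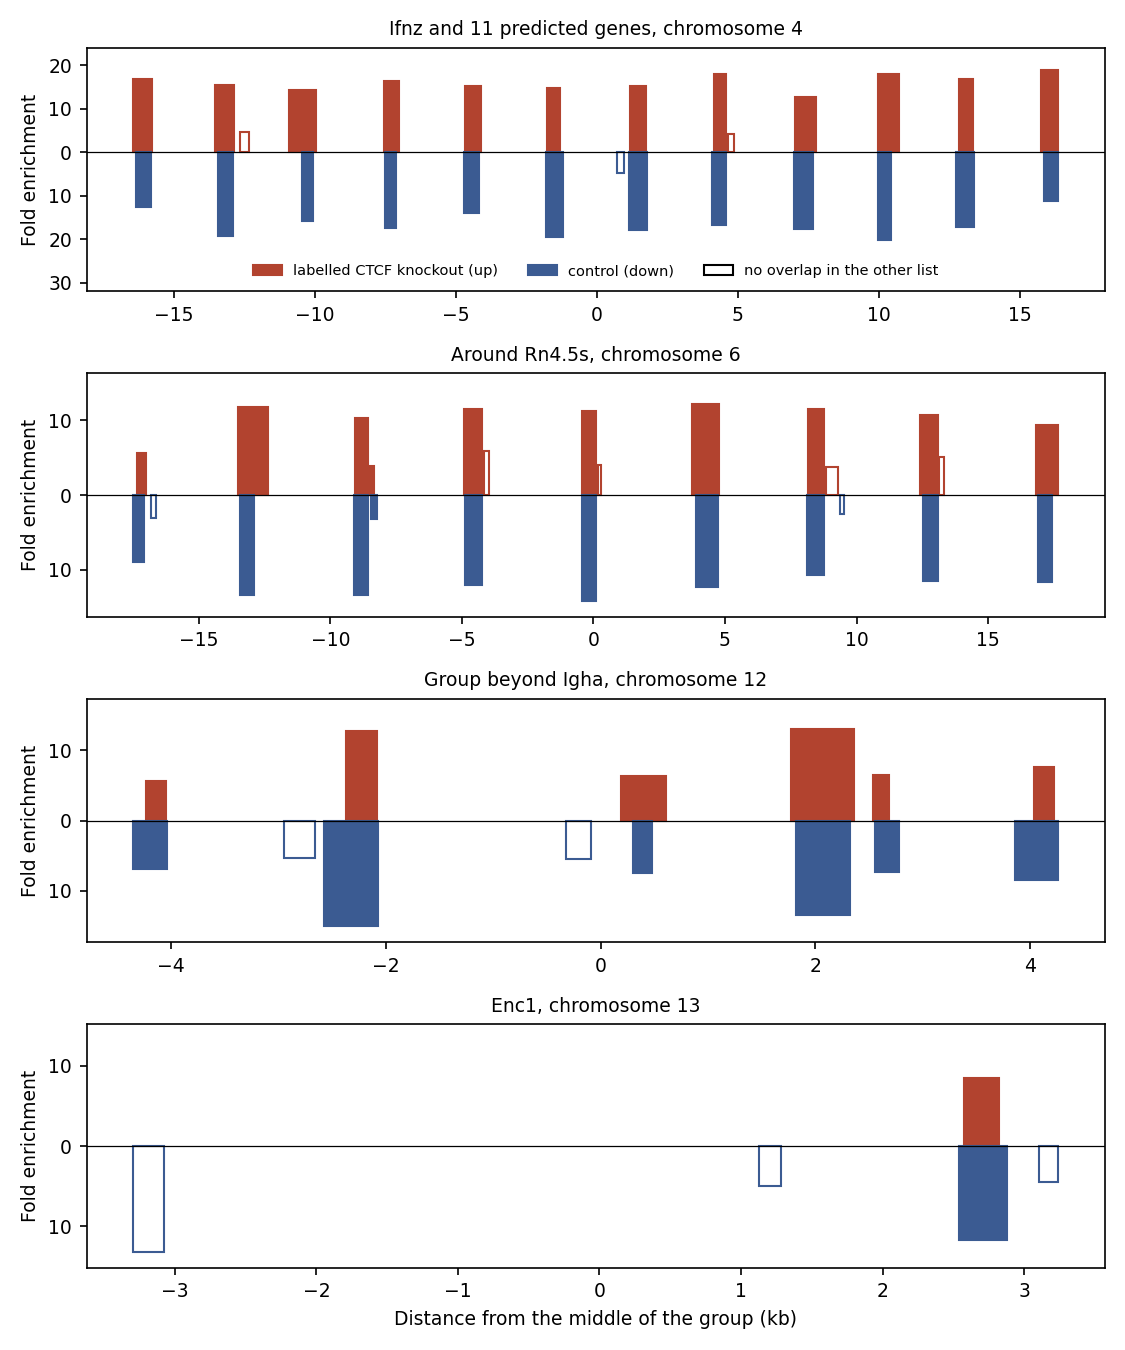
Regions of 4 groups as bars over their extent, with fold enrichment in the list labelled CTCF knockout drawn upward and in the control list downward, against distance from the middle of the group in kb; open bars overlap no region of the other list. The strong control lines of the row at Ifnz stand a median of 2924 bp apart. The lost lines beyond Igha are the weak ones at 5.36 and 5.48, and at Enc1 the strongest control line, 13.2, is open.

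Of 6 groups with 6 lines each, the 2 with the highest summed control fold enrichment stood on a low background. Near Capn13, a calpain protease gene (chr17:73297018-73305945), all 6 lines were kept, with 4.56 to 8.21 in the list labelled knockout and 4.8 to 13.9 in the control list, and 2 of them overlapped the same region of the other list. Near Scarb1, the gene of the HDL receptor SR-BI (chr5:125268077-125278689), 5 of 6 lines were kept, of which 2 overlapped the same region, and the lost one had 5.04 in the control list.

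The 5 groups with every line kept and the strongest weaker line were all pairs. First among them was a pair in Dnah17, a dynein heavy chain gene (chr11:118102756-118104389), 1102 bp apart. Its lines had 27.4 and 20.1 in the list labelled knockout and 20.9 each in the control list. Beside Zfp469, a zinc-finger gene, the lines had 8.21 and 10.6 in the list labelled knockout and 16.0 and 17.9 in the control list. In Fbp2, the muscle form of fructose bisphosphatase, they had 5.05 and 17.3 in the list labelled knockout and 14.5 and 17.9 in the control list. The pair 27.0 kb from Lrrc74a had 15.2 and 9.76 in the list labelled knockout and 18 and 15.6 in the control list. In Ap5b1, an adaptor complex gene, the lines had 9.32 and 17.3 in the list labelled knockout and 15.6 and 14.6 in the control list.

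In the 5 groups with no kept line and the strongest lost line, 1 strong region stood beside weak ones. The pair at Wnt5a, a secreted Wnt ligand gene (chr14:28505094-28507821), had control fold enrichments of 15.2 and 4.38, from pileups of 31 and 8 reads. A region of the list labelled knockout, of 4.32, lay between its summits without overlapping either line. That region ended 1.002 kb from the middle of the pair, and the line of 15.2 began at 1.056 kb. The pair at Hes1, a Notch target gene that encodes a transcriptional repressor (chr16:30067086-30071206), had 11 and 4.99. Near Entpd2, a gene of an enzyme that breaks down extracellular nucleotides, 3 lines had 4.34, 12.1 and 5.18. Between the lines of 12.1 and 5.18 the list labelled knockout had a region of 4.74 that overlapped neither. Pairs 36.4 kb from Rsph14 and in Opcml, a cell adhesion gene, had 13 and 4.99, and 4.99 and 11.2. Of closely spaced regions with a control fold enrichment of 4.49 to 5.18, 34.8% were kept, and of those with 10.1 to 12.1, 97.2%. The stronger lines of these groups thus sat in a range in which few regions were lost.

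In mixed groups chosen for the strongest lost line, the lost line had a higher control fold enrichment than its kept neighbour. In Mtarc2, a gene of a mitochondrial reductase, the lost line (chr1:184824583-184824884) had 14.0 in the control list. Its kept neighbour 539 bp away had 8.03 in the list labelled knockout and 9.06 in the control list. Near Enc1, a gene of a kelch protein (chr13:97235170-97241708), 3 of 4 lines were lost, with 13.2, 4.99 and 4.49. The kept one had 8.51 in the list labelled knockout and 11.7 in the control list. At Arhgef2 the lost line had 12.2, and the kept one 9.14 in the list labelled knockout and 11.2 in the control list. Pairs near Urad and near Grk2, a kinase of G protein-coupled receptors, lost lines of 12.9 and 12.2. Their kept lines had 6.83 and 6.13 in the list labelled knockout and 6.48 and 6.16 in the control list. These groups were chosen for their lost line, and the weaker line was the kept one in 114 of the 830 mixed pairs with unequal fold enrichment.

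The lines of the 5 closest pairs had control fold enrichments of 3.87 to 7.77. The pair 17.1 kb from Nedd4, a ubiquitin ligase gene, stood 119 bp apart, and the one in Kalrn 153 bp apart. In both, the lines overlapped the same region of the library labelled knockout. Its fold enrichment was 9.73 near Nedd4, against 5.04 and 3.88 in the control list, and 12.4 in Kalrn, against 3.88 and 6.37 in the control list. At Tor4a, 132 bp apart, the line of 7.23 was kept, with 11.2 in the list labelled knockout, and that of 4.38 was lost. At Mien1, 172 bp apart, both lines were kept as separate regions, and 61.7 kb from Zfp423, 179 bp apart, both were lost. Neighbours this close thus included lines that the other list joined into 1 region.

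Closely spaced regions at gene ends were kept less often than those between genes, also at like fold enrichment. At gene ends (within 1 kb of an end of a protein-coding or long non-coding gene) lay 1445 closely spaced regions (25.1%) and 20.7% of the other regions. Of these 1445, 889 were kept (61.5%, 59.0 to 64.0), against 67.4% of the other regions at gene ends and 63.8% of them at the same fold bins. Between genes 1416 of 1893 closely spaced regions were kept (74.8%, 72.8 to 76.7), against 71.9% of the other regions. In gene bodies the shares were 68.5% and 68.0%. Control fold enrichment had a median of 6.97 at gene ends and 7.3 between genes. At the fold bins of the gene ends, closely spaced regions between genes were kept in 73.0%.

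The order held at each spacing. At most 0.5 kb from a neighbour 50.5% were kept at gene ends (45.5 to 55.5, n = 404) and 60.2% between genes (55.0 to 65.2, n = 369), with intervals that met. At 0.5 to 1 kb the shares were 59.0% at gene ends (53.2 to 64.6) and 72.6% between genes (67.4 to 77.5). At 1 to 5 kb the shares were 68.6% at gene ends (65.1 to 71.9) and 79.9% between genes (77.5 to 82.1). Protein-coding gene ends had 1182 closely spaced regions, of which 59.0% were kept. Within 1 kb of a tRNA gene lay 28 closely spaced regions (0.486%) and 23 other ones (0.165%), and 64.3% and 78.3% of them were kept. A gene start lay between the outer summits of 409 of 2461 groups outside chromosome 18. It did so in 20.9% of the groups with no kept line, 19.1% of the mixed groups and 13.2% of the groups with every line kept. These shares were not matched for group span, which had a median of 1.63 kb in pairs and 3.77 kb in groups of 3.

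**Figure D5:**
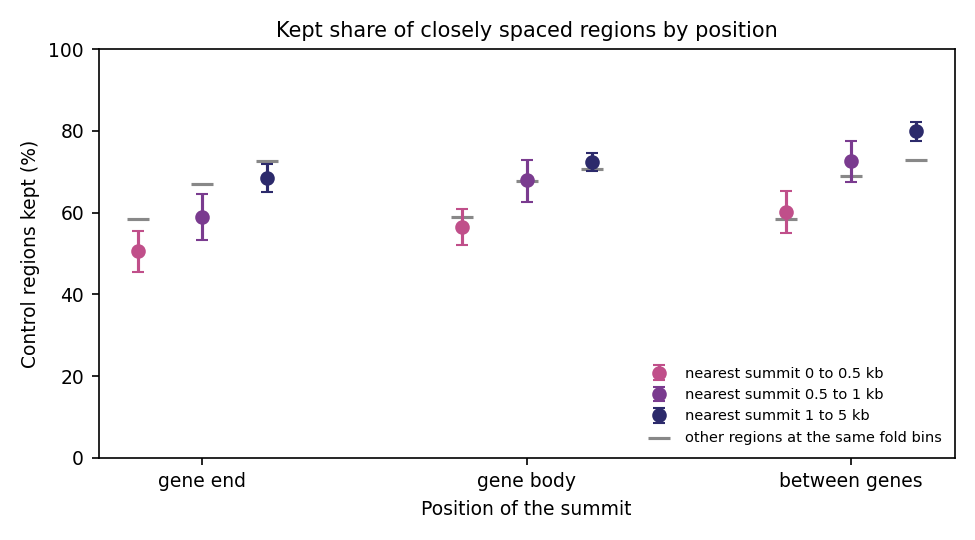
Kept share of closely spaced control regions in percent with exact 95% intervals, by position of the summit and distance to the nearest summit; grey lines give control regions with no close neighbour, at any position, at the same fold bins. At 1 to 5 kb the share is 68.6% at gene ends and 79.9% between genes.

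Gene lists of heart muscle and other cells were used to name groups within 10 kb of known genes. Closely spaced regions made up between 19% (Hox clusters) and 58.3% (fibroblast markers) of the control regions near the 13 lists, against 29.3% of all. Near sarcomere genes 11 of 13 closely spaced regions were kept. The count was 9 of 15 near calcium handling and ion channel genes and 6 of 11 near cardiac transcription factor genes. It was 3 of 4 near metabolic genes of fatty acids and energy and 3 of 7 near stress and fetal genes. Near genes of CTCF and cohesin 3 of 6 were kept, near imprinted genes 12 of 18, near Hox genes 1 of 4 and near protocadherin genes 4 of 6. Near fibroblast markers 6 of 7 were kept, near endothelial markers 4 of 5, near immune markers 2 of 2 and near smooth muscle and pericyte markers 4 of 6. These counts are small, and 69.1% of all control regions were kept.

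Groups near heart muscle genes showed both kinds of fate. Near Tnni3, the cardiac troponin I gene, a pair 3386 bp apart had 9.75 and 15.7 in the list labelled knockout and 6.6 and 15.1 in the control list. A trio beside it kept lines of 7.31 and 7.23 in the list labelled knockout and 7.36 and 7.33 in the control list, and lost a line of 3.88. Within Kcnq1, a potassium channel gene in an imprinted domain, 2 of 3 lines were kept. Their values were 6.2 and 13.9 in the list labelled knockout and 4.87 and 13.1 in the control list, and the lost line between them had 7.71. At Tbx2, a T-box factor gene of the forming heart, all 4 lines (chr11:85841929-85849397) were kept. Their values ran from 8.65 to 15.1 in the list labelled knockout and from 4.5 to 13.5 in the control list. Near Irx5, a homeobox gene, 1 of 3 lines was kept, with 5.4 in the list labelled knockout and 4.87 in the control list, and lines of 4.49 and 4.99 were lost. Lines near Slc27a1, a fatty acid transporter gene, included a kept line of 12.5 in the list labelled knockout and 19 in the control list. A line 357 bp from it, of 4.47 in the control list, was lost.

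The same held for loci of other kinds. At Myc, the growth regulator gene, a line between genes was kept, with 8.64 in the list labelled knockout and 9.62 in the control list. A line of 6.31 at a gene end and one of 6.82 in a gene body were lost. Near Cdkn1c, an imprinted cell cycle inhibitor gene, all 3 lines were kept, with 10.8, 10.8 and 15.6 in the list labelled knockout and 7.73, 8.04 and 13.7 in the control list. Beside Hoxd13 both lines were lost, from 6.48 and 7.98, and among the Hoxb genes 1 of 2 lines was kept, with 11.9 in the list labelled knockout and 8.47 in the control list. Along the Pcdhga genes of chromosome 18 a group of 4 lines stood 4946, 4602 and 4157 bp apart, each at a gene end. The first 3 were kept, with 10.3, 5.94 and 6.6 in the list labelled knockout and 7.98, 9.49 and 6.47 in the control list, and the last one was lost from 5.98. Near Smc3 and in Pds5a, genes of cohesin and of a cohesin regulator, the stronger line of a pair was kept and the weaker lost. At Col1a1, a collagen gene of fibroblasts, all 3 lines were kept, with 18.5, 12.5 and 5.85 in the list labelled knockout and 22.4, 10.5 and 7.79 in the control list. In Itpr2, a calcium release channel gene, both lines were kept, with 8.38 and 10.2 in the list labelled knockout and 11.5 and 12 in the control list. At Gadd45b, a stress response gene, both were kept too, with 6.13 and 8.68 in the list labelled knockout and 14.6 and 7.3 in the control list.

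Genes that mark other cells of the heart also had groups. In Pdgfra, a receptor gene of fibroblasts, 3 of 4 lines were kept, with 4.66, 12.9 and 8.64 in the list labelled knockout and 7.79, 5.62 and 13 in the control list. In Vwf, the gene of a blood clotting protein of vessel lining cells, 3 of 4 were kept, with 12.7, 10.2 and 10.1 in the list labelled knockout and 10.4, 10.5 and 7.71 in the control list. Near Eng, an endothelial receptor gene, both lines were kept, with 14.1 and 6.56 in the list labelled knockout and 16.2 and 9.92 in the control list. Near Cd68, a macrophage gene, both were kept, with 11.3 and 5.58 in the list labelled knockout and 5.42 and 8.09 in the control list. In Rgs5, a pericyte gene, 1 of 2 was kept, and in Cspg4 both were. Binding near a marker gene does not show which cells the DNA came from, and the share of other cells in the pools was not tested.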

How the data were processed

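CTCF ChIP-seq peak lists of 1 library labelled CTCF knockout and 1 control library were used. Input samples were not analysed here. The submitters' processing notes name mm10, MACS2, SAMtools 0.1.19 and Bowtie2 2.2.6. The sources used here do not give the MACS2 version, its threshold or the handling of duplicate and multiply mapping reads. The authors deposited 1 list per library. For each region the deposited lists hold a summit, a score, a fold enrichment (a ratio over local background) and its −log10 q and −log10 p. The lowest deposited −log10 q was 1.37 in the list labelled knockout and 1.32 in the control list.

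Summits on chromosomes 1 to 19 were chained at 5 kb, and kept meant an overlap of at least 1 bp. Pileup and background were solved from fold = (pileup + 1) / (background + 1) and the upper Poisson tail. Whole pileups matched the deposited values within 0.001 in 100% of regions. Chaining, overlap and recovery were tested on simulated data. Genes and promoter windows came from RefSeq tables of GRCm38.p6, the assembly called mm10. Of 256 listed genes 252 matched an autosomal entry by symbol. Each group was named by the nearest protein-coding gene span within 100 kb of its strongest summit. Named were the 10 groups with most lines (ties by summed control fold enrichment), and 5 groups each with every line kept, no line kept or the strongest lost line beside a kept one. The 5 closest pairs, neighbours next to the limit and up to 2 groups per gene list were also named. Members and lists were chosen with earlier results of these data known. No sequence outside promoter windows was used. Alternatives were other thresholds, neighbour distances, overlap rules, list lengths, measures of strength, gene-end windows and motif letters. Leaving out regions on a high background and joining lines with near edges were added after the data were seen. No test between genotypes was possible. Software was scipy 1.17.1, numpy 2.4.6, matplotlib 3.10.9 and pandas 2.3.3 under Python 3.11.15.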

Additional observations from a re-analysis of the deposited data

How the results depend on the processing

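No paired analysis was possible because there was 1 library of either genotype. Values below are under a −log10 q of at least 5, a fold enrichment of at least 5, neighbours within 2 kb and neighbours within 10 kb, in this order, where 4 are given. The number of closely spaced regions was 3317, 3738, 3415 and 8161, against 5766, and the number of groups 1499, 1689, 1582 and 3380, against 2522. The kept share was 75%, 73.6%, 64.8% and 70.6%, against 68.8%. It was 62.7% where summits had to lie within 100 bp and 56.3% where regions had to overlap by 50% of both. It was 81.5% after cutting the control list, ranked by p, to the length of the list labelled knockout. It was 71.9% after joining control lines whose edges lay within 200 bp. The difference from other control regions had no stable sign. It was 4.16, 2.78, -5.21 and 2.64 points under the first 4, -3.51 by summits, -5.03 by reciprocal overlap, 3.76 with equal lists and 2.2 with joined lines, against -0.351.

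The share of groups with every line kept was 54.5%, 52.0%, 39.9% and 45.9%, against 44.8%, with some lines kept 38.3%, 40.3%, 48.7% and 46.4%, against 46.1%, and with no line kept 7.20%, 7.64%, 11.4% and 7.63%, against 9.12%. By reciprocal overlap these 3 shares were 28.7%, 54.4% and 16.9%, by summits 35.7%, 52.8% and 11.5%, with equal lists 64.2%, 32.1% and 3.69%, and with joined lines 50.4%, 41.3% and 8.27%. The stronger line of a mixed pair was the kept one in 72.6%, 77.8%, 89.6% and 84.3%, in 82.2% with reciprocal overlap, 79.3% with equal lists and 83.6% with joined lines, against 86.3%. The lowest of the values tried was 72.6%. Gene ends held 22.9%, 23.8%, 28.3% and 24.1%, against 25.1%, and 23.4% with joined lines. A 5 kb window gave 58.3%. The second motif form was in 33.8% of windows under kept and 15.4% under lost regions, against 18.4% and 5.13%. Leaving out regions on a background of at least 5 reads moved no value beyond its interval. The cause was not tested. The motif search in region sequences was not run, as no genome was used, and joined lines and left-out backgrounds were chosen after seeing the data. In all 23 values stayed within their interval or within 1.5 times, and 55 moved.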
